A study of Mus musculus with 12 samples.

Results

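The comparison described here is the genotype by treatment interaction: for each gene, the difference in cortical expression between VERCUR-CD and VEH-CD mice minus the difference between VERCUR-WT and VEH-WT mice, on the log2 scale. It asks whether the CD deletion altered how the cortex responded to the co-treatment. All 12 mice of the series entered the contrast, 3 in each of the 4 groups, and it was computed for the 17111 of 17202 deposited genes that had a mean normalized count (reads per gene divided by a factor for each sample) of at least 10. The mice were males. CD (complete deletion) mice are a model of Williams-Beuren syndrome and lack 1 copy of the chromosome 5 interval that starts at Gtf2i and ends at Fkbp6, on a C57BL/6J background and crossed with Thy1-YFP mice. Per the labels, the treated mice drank curcumin (a phenol of turmeric) at 60 mg/kg/day together with verapamil (a calcium channel blocker) at 10 mg/kg/day, for 1 month from 8 weeks of age, and cortex was taken at 16 weeks. The methods of the study give a lower verapamil dose and an earlier end. The control mice are labelled untreated, whereas the methods give them the vehicle, and the names VEH-WT and VEH-CD follow the methods. A positive interaction means that expression was higher in CD mice relative to WT mice under VERCUR than under vehicle.

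Neuronal activity switches on immediate early genes within minutes. Calcium entry through synaptic and voltage-gated channels and the MAPK cascade activate the transcription factors CREB and SRF, which induce Fos, Egr and Nr4a family members, and these in turn induce effector genes that modify synapses. Many of the products feed back on the pathway, as do the Dusp phosphatases and the Sprouty proteins. Stress hormones act on a partly shared set of cortical genes through the glucocorticoid receptor, among them the clock gene Per1 and several Kruppel-like factors.

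Between 40.3 M and 56.5 M reads per mouse were counted on genes, recovered from the steps of the normalized counts. Log2 values of mice of the same group had correlations across genes from 0.986 to 0.994. In the 19 genes of the deleted region that were analysed, all 6 CD mice lay below all 6 WT mice in 19 of 19. The median interaction of these genes was -0.09, and from -0.13 to -0.05 with 1 mouse left out. All 19 interactions were below 0, against 8302 of all 17111 genes, and 0 had an unadjusted p under 0.05 with limma. The cause of this shared sign was not tested. Library VERCUR-CD 2 had the lowest sample weight, 0.28, and its level of long relative to short genes stood apart from the other 11 libraries, as described below. The sources do not say whether mice of a group shared a litter or cage, and the p values measure the spread between these mice only.

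The number of genes with an adjusted p under 0.05 for the interaction was 0 with limma and Benjamini-Hochberg adjustment and 0 with voom, which weights each value by its precision. The smallest adjusted p was 0.532, for Zfp189, with limma and Benjamini-Hochberg adjustment. At an unadjusted p under 0.05 there were 1035 genes, which is 6.05% of those tested, 637 of them higher (3.72%) and 398 lower (2.33%). This split of 61.5% higher was 60.1% after centring on the median log2 ratio. It was 50.4% after quantile normalization and 50.7% with voom on the recovered reads. The response to VERCUR taken alone also gave no call at an adjusted p under 0.05 in CD mice (smallest adjusted p = 0.159) or in WT mice (smallest adjusted p = 0.206) by limma with Benjamini-Hochberg adjustment. At an unadjusted p under 0.05 the response in CD mice had 605 genes (3.54%, with 2.09% higher and 1.44% lower) and that in WT mice 893 (5.22%, with 1.97% higher and 3.25% lower). The median standard error of an interaction was 0.16 and the median half-width of its 95% interval 0.35 on the log2 scale. With 3 mice a group, an estimate below that half-width did not reach an unadjusted p under 0.05 for a typical gene. The adjusted threshold asks for a larger one.

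The responses of the 2 genotypes come from separate mice and were nearly unrelated across genes, with a Pearson correlation of -0.02 and a Spearman correlation of -0.13 over 17111 genes, which are not independent replicates. They had opposite signs in 9668 genes (56.5%). The VERCUR and vehicle mice did not overlap in 8.34% of genes in CD and in 9.72% in WT. In 108 genes (0.631%) the VERCUR and vehicle mice did not overlap in either genotype and the directions were opposite, of which 70 (0.409%) were higher under VERCUR in CD and lower in WT and 38 (0.222%) the reverse. This split was 69 against 39 genes after centring on the median log2 ratio and 66 against 69 after quantile normalization. Without overlap and in the same direction there were 49 genes (0.286%), 31 higher and 18 lower in both. At an unadjusted p under 0.05 in each genotype, 40 genes had opposite and 10 the same directions, and 33 of the 40 were higher in CD mice. These genes were chosen by the values that the interaction compares, so their interactions are given as a description. Because both sets need a mouse-by-mouse separation, the edge is sharp: Six5 and Sc5d are inside with a ratio of the nearest mice of 1.0001 and 1.0005, whereas Zfp961 falls outside at 0.9992.

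**Figure D1:**
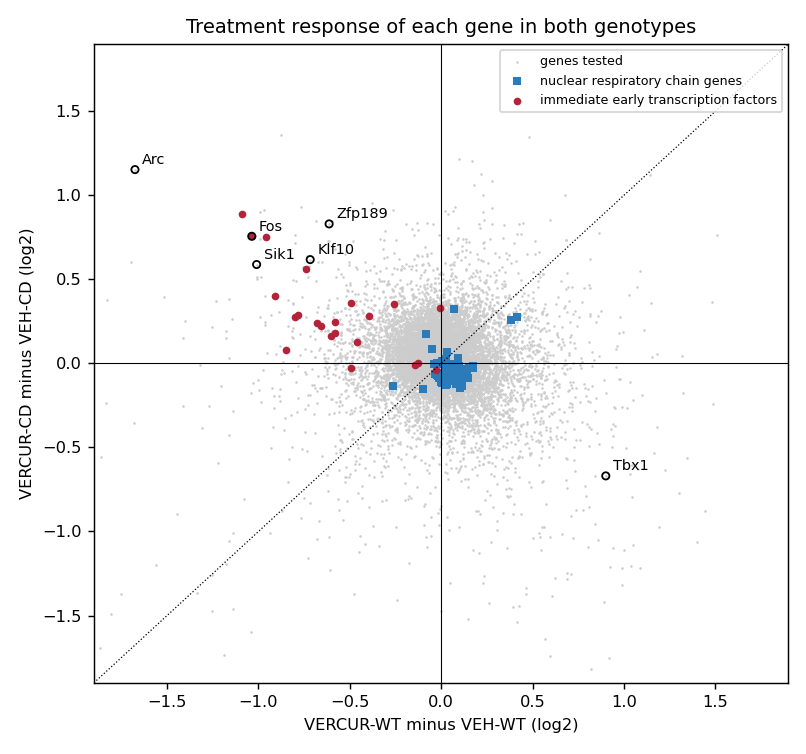
Response to VERCUR in WT mice (x axis, log2) against that in CD mice (y axis, log2), 1 point per gene. Grey points are all genes tested, red points the 22 immediate early transcription factors, open circles mark named genes, blue squares the 97 nuclear respiratory chain genes, and 31 genes lie beyond the axes of 1.9. Of the red points, 19 lie in the upper left (higher in CD, lower in WT), and of the blue squares 76 lie in the lower right, close to the origin.

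The 70 genes that were higher under VERCUR in CD and lower in WT had interactions from 0.17 to 1.60, with a median of 0.49, and 67 of them are protein coding. The choice of these genes leaves only VEH-WT or VERCUR-CD as the group with the highest mean and only VEH-CD or VERCUR-WT as that with the lowest. As a description, the highest mean was that of VEH-WT in 58 and the lowest that of VEH-CD in 60. Their median difference between CD and WT mice was -0.33 under vehicle and 0.13 under VERCUR. Zfp189, a zinc finger transcription factor gene (GRCm38 chromosome 4, 49521176 to 49531517), stood first by p. Zfp189 had normalized counts of 343, 513 and 419 in VEH-WT, 309.8, 215 and 308 in VERCUR-WT, 201, 237 and 204 in VEH-CD and 366, 377 and 396 in VERCUR-CD. The VEH-CD mice lay at the low end, where only VERCUR-WT 2 reached them, and the VERCUR-CD mice lay within the range of VEH-WT. The response of Zfp189 was 0.83 in CD and -0.61 in WT, with an interaction of 1.44 (standard error 0.23, 95% interval 0.95 to 1.94, adjusted p = 0.532 by limma with Benjamini-Hochberg adjustment).

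Klf10, a Kruppel-like factor induced by TGF-beta (chromosome 15, 38291463 to 38300706), stood first among the 70 genes with a mean of at least 50 when ranked by the smaller of the 2 responses. Klf10 had normalized counts of 2989, 3644 and 2315 in VEH-WT, 2156, 1230.0 and 2142 in VERCUR-WT, 1084, 1780.1 and 1435 in VEH-CD and 2464, 1855 and 2189 in VERCUR-CD. VEH-CD again had the lowest mean, and VERCUR-CD lay between the means of the WT groups. The responses were 0.62 in CD and -0.72 in WT, with an interaction of 1.33 (standard error 0.33, 95% interval 0.62 to 2.05, adjusted p = 0.783 by limma with Benjamini-Hochberg adjustment).

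Sik1, a salt-inducible kinase that restrains CREB coactivators (chromosome 17, 31844250 to 31855804), had the highest interaction of the 70. Sik1 had normalized counts of 937, 1622 and 1180.3 in VEH-WT, 693, 394 and 803 in VERCUR-WT, 334, 444 and 432 in VEH-CD and 757, 449.6 and 641 in VERCUR-CD. All 3 VEH-WT mice lay above every other mouse. Its responses were 0.59 in CD and -1.01 in WT, with an interaction of 1.60 (standard error 0.38, 95% interval 0.77 to 2.43, adjusted p = 0.783 by limma with Benjamini-Hochberg adjustment). Trib1 encodes a pseudokinase that directs proteins to degradation. Trib1 had normalized counts of 1815, 2676 and 1755 in VEH-WT, 1636, 699 and 1639.5 in VERCUR-WT, 769, 1157 and 1155 in VEH-CD and 1764, 1323 and 1288 in VERCUR-CD. The separation in CD mice is narrow, 1157 in the highest VEH-CD against 1288 in the lowest VERCUR-CD mouse, with an interaction of 1.24 (standard error 0.42, 95% interval 0.34 to 2.15, adjusted p = 0.816 by limma with Benjamini-Hochberg adjustment).

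Kdm6b encodes a histone H3 lysine demethylase. Kdm6b had normalized counts of 1323, 2178 and 1374 in VEH-WT, 1135, 897 and 1082 in VERCUR-WT, 900.3, 1029.6 and 835 in VEH-CD and 1372, 1074 and 1145 in VERCUR-CD. The 3 VEH-CD mice all lay below the 3 VERCUR-CD mice, with an interaction of 0.99 (standard error 0.24, 95% interval 0.46 to 1.51, adjusted p = 0.783 by limma with Benjamini-Hochberg adjustment). Rbm15, which encodes a cofactor of RNA adenosine methylation, had an interaction of 0.84 (95% interval 0.38 to 1.30). Utp14b, a copy of a ribosome biogenesis gene, had an interaction of 1.05 (95% interval 0.63 to 1.48), and Zfp366, a zinc finger gene, had an interaction of 0.96 (95% interval 0.47 to 1.45). By p alone, the genes after Zfp189 and Utp14b were Tent5a, a poly(A) polymerase gene (interaction 0.86, 95% interval 0.48 to 1.23), Ppp1r3c, a glycogen-targeting subunit of a protein phosphatase (interaction 0.50, 95% interval 0.27 to 0.73), Vasn, a TGF-beta-binding membrane protein (interaction 0.81, 95% interval 0.43 to 1.18), Tmem254b (interaction 1.19, 95% interval 0.62 to 1.76), Cdr2l (interaction 0.49, 95% interval 0.25 to 0.72) and the syntrophin gene Sntb2 (interaction 0.87, 95% interval 0.45 to 1.30). Tmem254b has near-identical neighbouring copies, between which reads could have been split, and its groups of CD mice overlap.

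**Figure D2:**
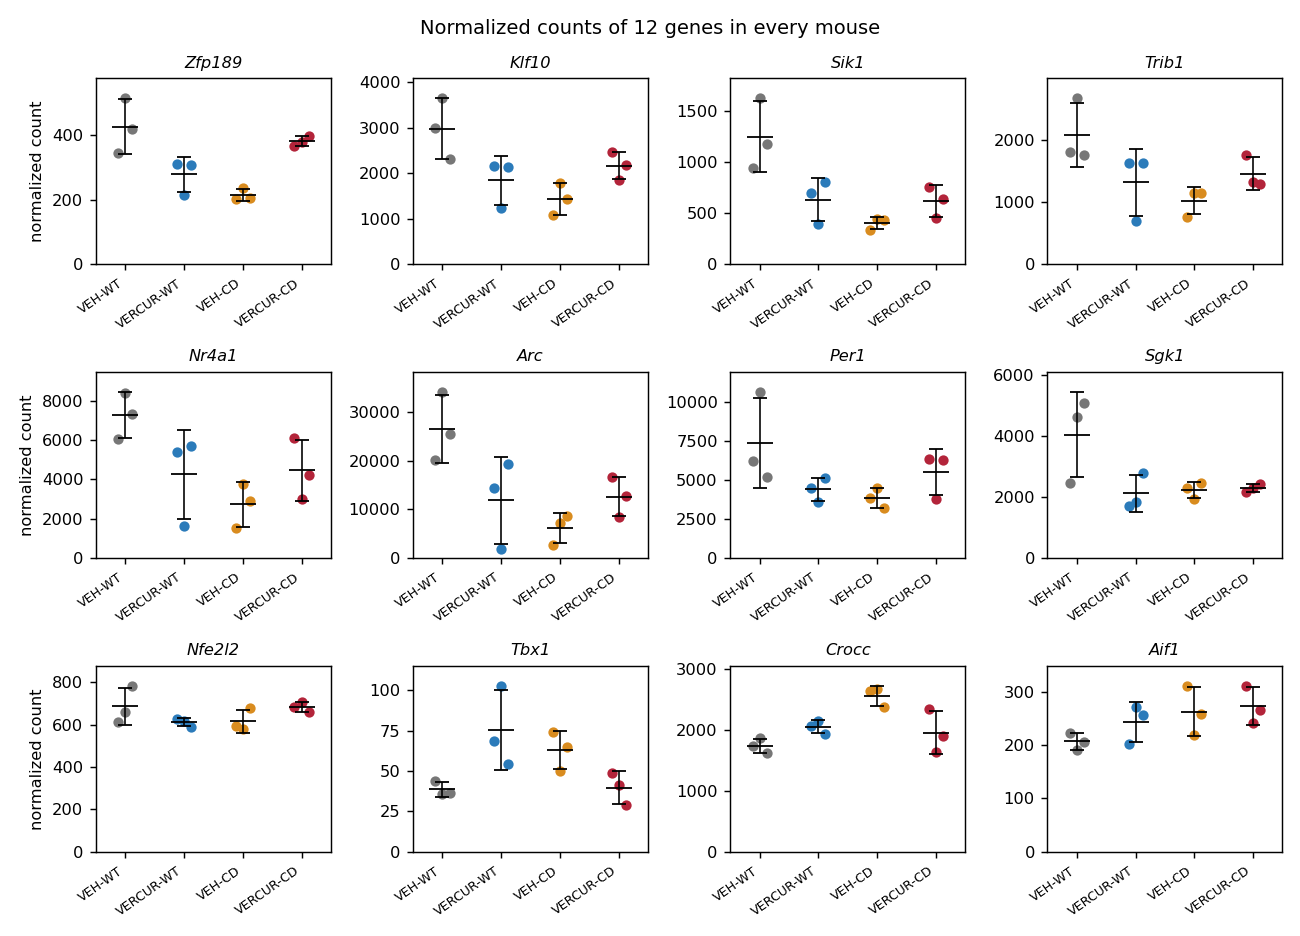
Normalized counts (y axis, from 0) of 12 genes in every mouse, with 1 panel per gene and the 4 groups along the x axis. Coloured points are mice, and the bar and whiskers give the mean and SD of 3 mice. In Zfp189, Klf10 and Sik1 the mean is lowest in VEH-CD and highest in VEH-WT, in Tbx1 and Crocc VEH-WT has the lowest mean, and in Aif1 vehicle and VERCUR mice overlap.

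Of the 22 immediate early transcription factors tested, 21 had an interaction above 0, against 8809 of all 17111 genes. An unadjusted p under 0.05 in that direction was reached by 12 (54.5%), against 3.72% of all genes, and in the other by none. The median interaction of the list was 0.84 (all genes 0.01), made of a median response of 0.26 in CD and -0.59 in WT. VEH-WT had the highest mean in 22 of the 22, against 28.3% of all genes. Leaving out 1 mouse at a time kept the median between 0.63 and 1.01 and the count between 8 and 14. No member passed the adjusted p, and only Klf2 and Klf4 were without overlap in both genotypes. The list was chosen with earlier results of these data in view.

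Egr2, a zinc finger factor of the Egr family, had the highest interaction of the list. Egr2 had normalized counts of 527, 1346 and 980.4 in VEH-WT, 432, 247 and 668 in VERCUR-WT, 67.4, 279 and 261 in VEH-CD and 434, 242 and 299 in VERCUR-CD. VEH-CD had the lowest mean, and mice of 1 group differed widely, with an interaction of 1.98 (standard error 0.73, 95% interval 0.39 to 3.57, adjusted p = 0.816 by limma with Benjamini-Hochberg adjustment). Fos, a subunit of the AP-1 factor (chromosome 12, 85473890 to 85477273), had the same order of group means. Fos had normalized counts of 1965, 3081 and 2587 in VEH-WT, 1704, 596 and 1784 in VERCUR-WT, 278, 1279 and 819 in VEH-CD and 1409.9, 747 and 1335 in VERCUR-CD. The WT groups did not overlap, while the VEH-CD mouse at 1279 lay among the VERCUR-CD mice, with an interaction of 1.79 (standard error 0.73, 95% interval 0.22 to 3.37, adjusted p = 0.816 by limma with Benjamini-Hochberg adjustment).

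Nr4a1, an orphan nuclear receptor, also had its highest mean in VEH-WT and its lowest in VEH-CD. Nr4a1 had normalized counts of 6073, 8395 and 7341 in VEH-WT, 5405, 1650.5 and 5697 in VERCUR-WT, 1502, 3785 and 2878 in VEH-CD and 6113, 3009 and 4235 in VERCUR-CD. VERCUR-WT 2 and VEH-CD 1 were the lowest of the 12 mice, with an interaction of 1.71 (standard error 0.62, 95% interval 0.36 to 3.06, adjusted p = 0.816 by limma with Benjamini-Hochberg adjustment). Klf2, a Kruppel-like factor, had a smaller interaction with less spread. Klf2 had normalized counts of 637, 925 and 725 in VEH-WT, 518, 421 and 559.7 in VERCUR-WT, 387, 361 and 416 in VEH-CD and 454, 421 and 430.2 in VERCUR-CD. Its VEH-CD mice lay just below its VERCUR-CD mice, while the VERCUR-WT mice lay well below VEH-WT, with an interaction of 0.77 (standard error 0.19, 95% interval 0.35 to 1.18, adjusted p = 0.783 by limma with Benjamini-Hochberg adjustment). Klf2 had the smallest p of the list. Egr3, another zinc finger factor of that family, had an interaction of 0.68 (95% interval 0.29 to 1.07), and Egr1 itself an interaction of 0.83 (95% interval -0.00054 to 1.65). Jund, an AP-1 subunit that neurons express without stimulation, was the only member below 0, with an interaction of -0.01 (95% interval -0.22 to 0.20), whose sign turned under gene-by-gene sample weights.

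The promoters of 4 genes are shown, since CREB sites are the textbook link from calcium entry to immediate early genes. Zfp189 and Utp14b had the smallest p of all genes, Klf2 the smallest of the immediate early factors, and Nr4a1 is a textbook target of CREB. The sequences are from RefSeq on GRCm38.p6, 250 bases before to 50 after the annotated start, all on the plus strand, and capitals mark the half-site TGACG or its reverse complement CGTCA.
Nr4a1, chr15:101266596-101266895: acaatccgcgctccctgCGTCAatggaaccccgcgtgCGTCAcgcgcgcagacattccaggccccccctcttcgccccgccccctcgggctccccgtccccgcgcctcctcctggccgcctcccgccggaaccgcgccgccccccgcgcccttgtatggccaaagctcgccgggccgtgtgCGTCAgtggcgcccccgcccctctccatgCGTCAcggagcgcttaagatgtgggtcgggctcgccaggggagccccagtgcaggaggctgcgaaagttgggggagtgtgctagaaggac
Zfp189, chr4:49520926-49521225: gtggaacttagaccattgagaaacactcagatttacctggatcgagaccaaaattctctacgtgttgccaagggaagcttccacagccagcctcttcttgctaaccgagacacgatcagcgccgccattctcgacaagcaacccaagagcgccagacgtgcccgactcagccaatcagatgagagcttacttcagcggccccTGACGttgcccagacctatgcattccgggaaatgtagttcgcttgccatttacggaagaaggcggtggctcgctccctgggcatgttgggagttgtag
Klf2, chr8:72318812-72319111: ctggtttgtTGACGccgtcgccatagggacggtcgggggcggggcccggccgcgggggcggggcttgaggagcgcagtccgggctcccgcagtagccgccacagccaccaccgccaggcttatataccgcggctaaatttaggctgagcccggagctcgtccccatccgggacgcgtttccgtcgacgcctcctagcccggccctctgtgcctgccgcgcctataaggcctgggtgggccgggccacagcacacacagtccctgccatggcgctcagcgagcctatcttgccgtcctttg
Utp14b, chr1:78658190-78658489: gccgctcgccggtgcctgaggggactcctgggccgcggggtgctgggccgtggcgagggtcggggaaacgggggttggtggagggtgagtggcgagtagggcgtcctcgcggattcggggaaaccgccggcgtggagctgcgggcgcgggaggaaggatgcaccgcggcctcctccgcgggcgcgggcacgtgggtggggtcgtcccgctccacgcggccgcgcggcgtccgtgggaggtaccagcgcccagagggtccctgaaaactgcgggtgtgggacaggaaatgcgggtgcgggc
The half-site occurs 4 times in the Nr4a1 window, once in those of Zfp189 and Klf2 and 0 times in that of Utp14b.

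A promoter was found for 18 of the 22 immediate early factors, and 14 (77.8%) held at least 1 half-site on either strand, against 4059 of 12150 tested genes with a promoter (33.4%). Of the 54 promoters matched among the 70 genes higher in CD and lower in WT, 24 (44.4%) held it, and of the 23 among the 38 reverse genes 6 (26.1%). The palindromic full CREB site, TGACGTCA, which contains the half-site on both strands, stood in 3.38% of all promoters, in 4 (7.41%) of the 54, in 2 (11.1%) of the 18 and in 4 (22.2%) of the 18 matched effector genes. The serum response element core (the CArG box) stood in 1.67% of all promoters, in 0 of the 54 and in 0 of the 23. It stood in 1 (5.56%) of the 18 immediate early factors, in 1 (8.33%) of 12 matched MAPK feedback inhibitors and in 0 of the 18 effector genes. These are matches of letters in a short window and no test was made of them. The immediate early list holds textbook CREB targets such as Nr4a1, so a high share of half-sites there follows from its choice. The 54 and the 23 come from genes chosen by their responses. Whether CREB has a part in the interaction was not tested.

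Among the 28 activity-induced effector genes, whose products act at synapses and in signalling, the median interaction was 0.25. Of them 9 (32.1%) had an unadjusted p under 0.05 above 0, against 3.72% of all genes, and none below. The count was 4 without VEH-WT 2 and 5 without VEH-CD 1. Arc, a synaptic protein that removes AMPA receptors from the membrane (chromosome 15, 74669083 to 74672570), had the highest value. Arc had normalized counts of 20198, 34120.1 and 25465 in VEH-WT, 14339, 1948 and 19267 in VERCUR-WT, 2658, 7209.8 and 8603 in VEH-CD and 16726, 8537 and 12694 in VERCUR-CD. VERCUR-WT 2, at 1948, and VEH-CD 1, at 2658, were the lowest mice, and the CD groups overlap by a margin of 8603 in VEH-CD 3 against 8537 in VERCUR-CD 2. The responses of Arc were 1.15 in CD and -1.68 in WT, with an interaction of 2.83 (standard error 0.98, 95% interval 0.71 to 4.94, adjusted p = 0.816 by limma with Benjamini-Hochberg adjustment). Sik1, described above, had the smallest p of the list and Inhba, an activin subunit, the lowest value, an interaction of -0.17 (95% interval -0.58 to 0.24). Bdnf, a neurotrophin induced by activity and measured as a protein in the study, had an interaction of 0.30 (95% interval -0.22 to 0.82) and overlapping groups.

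Of 14 feedback inhibitors of the MAPK pathway, 5 (35.7%) had an unadjusted p under 0.05, all above 0, against 3.72% of all genes. The median interaction was 0.30. Dusp5, a nuclear phosphatase of ERK, was highest. Dusp5 had normalized counts of 725, 1193 and 760.5 in VEH-WT, 485, 265 and 625 in VERCUR-WT, 311, 457 and 393 in VEH-CD and 715, 396 and 576 in VERCUR-CD. The VEH-WT mice lay above all others and the CD groups overlapped through VERCUR-CD 2, at 396, with an interaction of 1.52 (standard error 0.43, 95% interval 0.59 to 2.45, adjusted p = 0.816 by limma with Benjamini-Hochberg adjustment). Spry4, a Sprouty inhibitor of receptor tyrosine kinase signalling, had the smallest p. Spry4 had normalized counts of 897, 1036 and 771 in VEH-WT, 809.5, 522 and 642 in VERCUR-WT, 393, 582 and 431 in VEH-CD and 653, 677 and 732 in VERCUR-CD. The 3 VEH-CD mice lay below the 3 VERCUR-CD mice and the WT groups overlapped by the mouse at 771 and that at 809.5, with an interaction of 1.04 (standard error 0.24, 95% interval 0.51 to 1.56, adjusted p = 0.783 by limma with Benjamini-Hochberg adjustment). Dusp2 was lowest, with an interaction of -0.26 (95% interval -0.89 to 0.36).

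**Figure D3:**
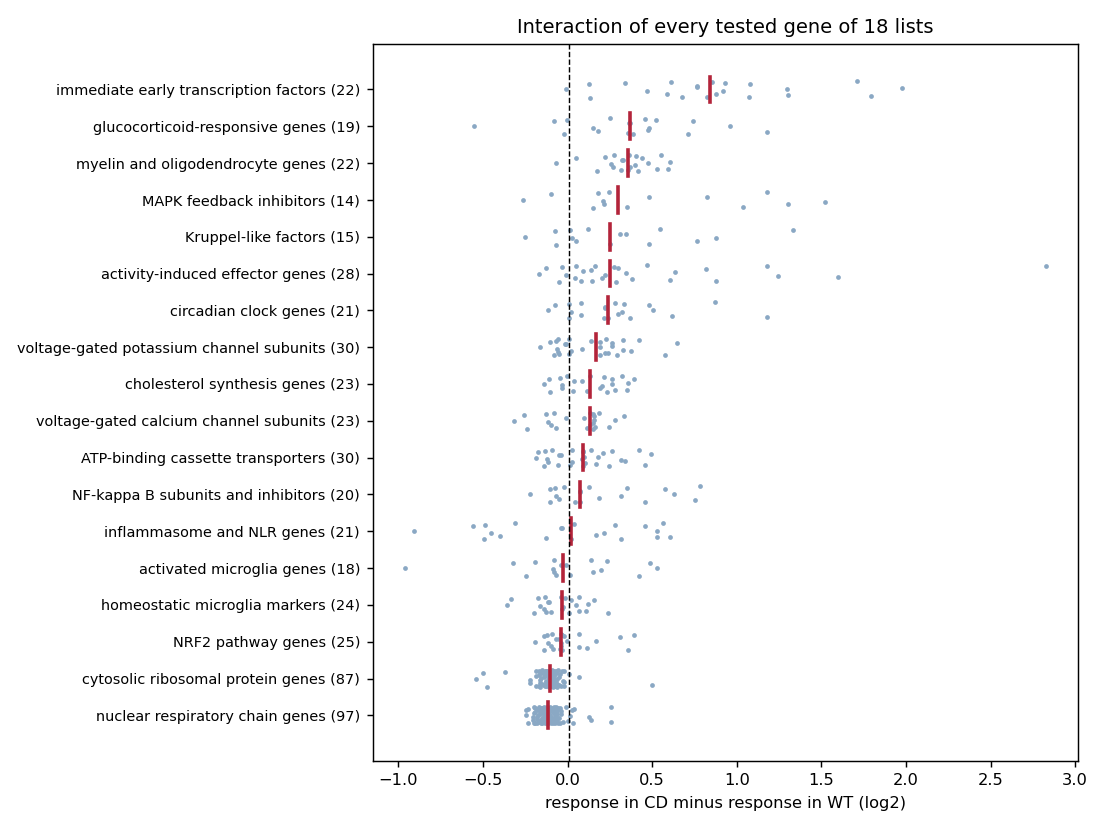
Interaction (x axis, log2 response in CD minus that in WT) of every tested gene in 18 lists, sorted by their median, with the number tested in brackets. Each dot is a gene, red bars are list medians and the dashed line is the median of all genes tested, 0.01. Among these 18, the immediate early factors have the highest median, 0.84, and the respiratory chain genes the lowest, -0.12. In all, 46 lists were computed. Those not plotted include red blood cell genes, with a median of -0.36, and border macrophage markers, with -0.29.

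The 19 glucocorticoid-responsive genes had a median of 0.37 from a response of 0.12 in CD and -0.24 in WT. Of them 9 (47.4%) had an unadjusted p under 0.05 above 0, against 3.72% of all genes, and none below. The count was 4 without VEH-CD 2 and 5 without VEH-WT 2, VEH-WT 3, VERCUR-WT 2 or VERCUR-CD 3. Per1, a clock gene that both light and glucocorticoids induce, was highest and had the smallest p. Per1 had normalized counts of 6254, 10644 and 5218 in VEH-WT, 4514, 3607 and 5106 in VERCUR-WT, 3844, 4479.5 and 3194 in VEH-CD and 6367, 3808 and 6322 in VERCUR-CD. VEH-WT 2 was the highest mouse and 1 VERCUR-CD mouse lay among the VEH-CD mice, with an interaction of 1.18 (standard error 0.36, 95% interval 0.40 to 1.96, adjusted p = 0.816 by limma with Benjamini-Hochberg adjustment). Sgk1, a kinase induced by glucocorticoids, was highest in VEH-WT. Sgk1 had normalized counts of 2464, 4605 and 5065 in VEH-WT, 1702, 1845 and 2794 in VERCUR-WT, 2279, 1933 and 2449.6 in VEH-CD and 2166, 2300.4 and 2423 in VERCUR-CD. The WT groups overlapped through VEH-WT 1, and the 2 CD groups covered a like range, with an interaction of 0.96 (standard error 0.33, 95% interval 0.23 to 1.68, adjusted p = 0.816 by limma with Benjamini-Hochberg adjustment). Angptl4 had the lowest value, an interaction of -0.55 (95% interval -1.47 to 0.36), and Fkbp5, a glucocorticoid receptor chaperone that strongly tracks the hormone, had an interaction of -0.01 (95% interval -0.38 to 0.37). Sik1, Per1, Errfi1 and several Kruppel-like factors belong to more than 1 of these lists.

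Of 21 circadian clock genes, 6 (28.6%) had an unadjusted p under 0.05, all above 0, against 3.72% of all genes, with a median of 0.24. Bhlhe40, a repressor of the clock, had the smallest p. Bhlhe40 had normalized counts of 7911, 12869 and 7853 in VEH-WT, 7028, 7229 and 6086 in VERCUR-WT, 4559.9, 6282 and 4554 in VEH-CD and 6576, 6238 and 7512 in VERCUR-CD. Only VERCUR-CD 2 (6238) against VEH-CD 2 (6282) made the CD mice overlap, with an interaction of 0.87 (standard error 0.25, 95% interval 0.33 to 1.41, adjusted p = 0.816 by limma with Benjamini-Hochberg adjustment). Csnk1e was lowest, with an interaction of -0.11 (95% interval -0.32 to 0.09). The hour at which tissue was taken is not given in the sources used here, and its part in these values was not tested. Among the 15 Kruppel-like factors, 5 (33.3%) had an unadjusted p under 0.05, all above 0, against 3.72% of all genes. Klf2, Klf4 and Klf10 were without overlap in both genotypes. The lowest was Klf6, an interaction of -0.25 (95% interval -0.54 to 0.04). Of 372 genes taken by the symbol Zfp (zinc finger proteins, whose domain types were not checked), 24 (6.45%) were higher and 6 (1.61%) lower at that p. Of all genes 3.72% were higher and 2.33% lower. The higher count of the Zfp genes was 8 without VERCUR-WT 2, 9 without VEH-CD 1, 11 without VEH-CD 3 or VERCUR-CD 2, 12 without VEH-WT 3, 14 without VEH-WT 2 and 41 without VERCUR-CD 1. The lower count was 12 after quantile normalization and from 2 (without VEH-CD 3) to 11 (without VEH-CD 2) with 1 mouse left out.

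The study stained the proteins IBA1 and IL-1beta in motor cortex and CA1, whereas these values are RNA of frontal cortex. The microglia, inflammasome and NF-kappa B lists had medians near 0. Border macrophage markers had a median of -0.29 (-0.38 to 0.02 with 1 mouse left out). Of 16 MHC class I and II genes, 2 (12.5%) were lower at an unadjusted p under 0.05, against 2.33% of all genes. Their median was -0.08, and the count ran from 0 to 2 with 1 mouse left out. Aif1, which encodes the microglial protein IBA1, was measured at moderate levels. Aif1 had normalized counts of 223, 192 and 206 in VEH-WT, 202, 271 and 257 in VERCUR-WT, 311, 218 and 259 in VEH-CD and 311, 241 and 267 in VERCUR-CD. The vehicle and VERCUR mice overlapped in both genotypes, with an interaction of -0.16 (standard error 0.22, 95% interval -0.63 to 0.31, adjusted p = 0.863 by limma with Benjamini-Hochberg adjustment). Il1b was not analysed here. Of 24 markers of homeostatic microglia and 18 genes of activated microglia, 0 had an unadjusted p under 0.05 with limma in either direction and 0 an adjusted one, against 3.72% and 2.33% of all genes, with medians of -0.04 and -0.02. Their extremes were Sall1 (interaction 0.24, 95% interval -0.08 to 0.56) and P2ry13 (interaction -0.36, 95% interval -0.94 to 0.22), and Tlr4 (interaction 0.53, 95% interval -0.19 to 1.24) and Clec7a (interaction -0.96, 95% interval -2.18 to 0.25). The smallest p of these lists were those of Trem2, an interaction of -0.33 (95% interval -0.75 to 0.08), and Socs3, an interaction of 0.48 (95% interval -0.12 to 1.09). Tgfb1, a cytokine that keeps microglia quiescent, had an interaction of -0.25 (95% interval -0.60 to 0.10).

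Of 21 inflammasome and NLR genes, 2 (9.52%) were higher and 2 (9.52%) lower at an unadjusted p under 0.05, against 3.72% and 2.33% of all genes. The higher count was 0 without VEH-WT 3, VERCUR-WT 1, VERCUR-WT 2, VEH-CD 2 or VERCUR-CD 3 and 1 without VEH-WT 1, VEH-CD 1, VEH-CD 3 or VERCUR-CD 2. It was 1 after quantile normalization, and the lower count was 4 without VEH-CD 2 and 3 without VERCUR-WT 3 or VERCUR-CD 3. Card9, an adaptor of pattern recognition receptors, had the lowest value and the smallest p. Card9 had normalized counts of 44.8, 48.5 and 60 in VEH-WT, 62.9, 58.4 and 66.4 in VERCUR-WT, 69.7, 70.6 and 62.3 in VEH-CD and 42.8, 35.1 and 55.8 in VERCUR-CD. The 3 VEH-CD mice lay above the 3 VERCUR-CD mice and the WT mice overlapped, with an interaction of -0.91 (standard error 0.26, 95% interval -1.48 to -0.34, adjusted p = 0.816 by limma with Benjamini-Hochberg adjustment). The highest, Nlrp1b, had an interaction of 0.60 (95% interval -0.65 to 1.86) at 4.79 to 18.99 normalized counts. Nlrp3, the sensor of the best known inflammasome, had an interaction of -0.40 (95% interval -1.19 to 0.38), its adaptor Pycard an interaction of 0.02 (95% interval -0.44 to 0.48), and the DNA sensor Aim2 an interaction of 0.04 (95% interval -0.58 to 0.65). The signs of Pycard and Aim2 turned under other settings. Of 20 NF-kappa B subunits and inhibitors, 3 (15%) were higher and 0 lower at that p, against 3.72% and 2.33% of all genes. Rel, a subunit of NF-kappa B, had the smallest p. Rel had normalized counts of 257, 233 and 263 in VEH-WT, 203, 144 and 206 in VERCUR-WT, 151, 203 and 189 in VEH-CD and 219, 233 and 208 in VERCUR-CD. It lacked overlap in both genotypes, with an interaction of 0.75 (standard error 0.21, 95% interval 0.29 to 1.21, adjusted p = 0.816 by limma with Benjamini-Hochberg adjustment). Nfkbiz was highest, an interaction of 0.78 (95% interval 0.23 to 1.33), and Bcl3 lowest, an interaction of -0.22 (95% interval -1.37 to 0.93).

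Curcumin is known as an activator of NRF2, the transcription factor of the antioxidant response that Nfe2l2 encodes. Nfe2l2 had normalized counts of 614, 662 and 783 in VEH-WT, 626, 618 and 589.9 in VERCUR-WT, 593, 577 and 677 in VEH-CD and 684, 705 and 659 in VERCUR-CD. The WT groups overlapped, and the 2 CD groups overlapped by a single pair of mice, with an interaction of 0.31 (standard error 0.13, 95% interval 0.02 to 0.60, adjusted p = 0.816 by limma with Benjamini-Hochberg adjustment). Among 25 genes of the NRF2 pathway, only Nfe2l2 and Hmox1 (heme oxygenase, interaction 0.39, 95% interval 0.01 to 0.78) had an unadjusted p under 0.05, both above 0 (8% of the list against 3.72% of all genes). Below 0 were 18 of the 25 interactions, against 8302 of all 17111 genes, with a median of -0.04. The count of 2 was 0 after quantile normalization, 0 without VEH-WT 3, VERCUR-WT 3, VEH-CD 1, VEH-CD 2 or VERCUR-CD 2 and 1 without VEH-WT 2, VERCUR-WT 1 or VERCUR-WT 2. Osgin1 was lowest, an interaction of -0.19 (95% interval -1.24 to 0.86). Akt1, a kinase that the study names, had an interaction of 0.02 (95% interval -0.13 to 0.18), so an interaction beyond 0.18 in either direction lay outside its 95% interval.

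Verapamil blocks L-type calcium channels and also the drug transporter that Abcb1a encodes. Of 23 voltage-gated calcium channel subunits, 0 had an unadjusted p under 0.05 with limma and 0 an adjusted one, with a median interaction of 0.13, and without VERCUR-CD 2 the median was 0.03, while without VERCUR-CD 1 there were 2 higher subunits and 1 lower at that p. There was 1 higher and 1 lower without VEH-WT 2, 1 higher without VERCUR-WT 3 and 1 lower without VERCUR-WT 2. After quantile normalization, centring on the median log2 ratio or with a pseudocount of 5, 1 subunit was lower. The L-type subunits Cacna1c and Cacna1d had an interaction of 0.13 (95% interval -0.22 to 0.49) and an interaction of 0.15 (95% interval -0.17 to 0.48). The highest was Cacna2d4, an interaction of 0.33 (95% interval -0.22 to 0.89), the lowest Cacng6, an interaction of -0.32 (95% interval -0.98 to 0.35), and Cacna1h had the smallest p, an interaction of -0.24 (95% interval -0.48 to 0.0003). Of 30 ATP-binding cassette transporters, 1 (3.33%) was higher at that p, Abca1 (a cholesterol exporter, interaction 0.49, 95% interval 0.04 to 0.94), a share near the 3.72% of all genes, and Abca7 was lowest, an interaction of -0.18 (95% interval -0.44 to 0.07). The higher count was 0 without VEH-WT 1, VEH-WT 3, VERCUR-WT 2, VEH-CD 2, VEH-CD 3 or VERCUR-CD 2, 2 without VERCUR-WT 1 or VERCUR-WT 3 and 3 without VERCUR-CD 1. Abcb1a had an interaction of 0.17 (95% interval -0.24 to 0.58). Of 30 voltage-gated potassium channel subunits 4 (13.3%) were higher and 0 lower, against 3.72% and 2.33% of all genes, and the higher count was 11 without VERCUR-CD 1. Kcnh5 had the highest value, an interaction of 0.65 (95% interval -0.14 to 1.44), and Kcnc4 the lowest, an interaction of -0.16 (95% interval -0.35 to 0.03).

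Of 23 cholesterol synthesis genes, 5 (21.7%) were higher at an unadjusted p under 0.05 and 0 lower, against 3.72% and 2.33% of all genes. Cyp51, a lanosterol demethylase, had small but tight differences. Cyp51 had normalized counts of 3662, 3554 and 3518 in VEH-WT, 3097, 2832 and 3226 in VERCUR-WT, 2966, 2881 and 2900.0 in VEH-CD and 3239.6, 3208 and 3046 in VERCUR-CD. The VEH-WT mice lay above all others and the VEH-CD mice near the lowest, with an interaction of 0.35 (standard error 0.08, 95% interval 0.17 to 0.53, adjusted p = 0.783 by limma with Benjamini-Hochberg adjustment). Sc5d, of the last steps of the pathway, was the other member without overlap in both genotypes. Hsd17b7 was highest, an interaction of 0.39 (95% interval -0.01 to 0.79), and Tm7sf2 lowest, an interaction of -0.14 (95% interval -0.31 to 0.03). The count was 2 without VEH-WT 1 or VEH-CD 2 and 3 without VERCUR-WT 2, VERCUR-WT 3 or VERCUR-CD 2, so the number of members counted rested on single mice, and it was 3 after quantile normalization.

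The 38 genes that were lower under VERCUR in CD and higher in WT had a median interaction of -0.48, and 25 are protein coding. Their choice leaves only VEH-WT or VERCUR-CD as the lowest group and only VEH-CD or VERCUR-WT as the highest, and these were VEH-WT in 29 and VEH-CD in 29. Tbx1, a T-box factor of the pharyngeal arches that is deleted in DiGeorge syndrome (chromosome 16, 18580979 to 18590671), had the largest difference, at low levels. Tbx1 had normalized counts of 43.7, 35.8 and 36.5 in VEH-WT, 68.8, 103 and 54.3 in VERCUR-WT, 74.3, 50.3 and 64.7 in VEH-CD and 48.9, 41.4 and 28.9 in VERCUR-CD. VERCUR-WT and VEH-CD lay above VEH-WT and VERCUR-CD, with an interaction of -1.57 (standard error 0.36, 95% interval -2.36 to -0.78, adjusted p = 0.783 by limma with Benjamini-Hochberg adjustment). Crocc, which encodes the ciliary rootlet protein rootletin (chromosome 4, 141016637 to 141060550), was expressed at a higher level. Crocc had normalized counts of 1739.6, 1865 and 1631 in VEH-WT, 2075, 2152 and 1939.7 in VERCUR-WT, 2645, 2674 and 2379 in VEH-CD and 2347, 1636 and 1901 in VERCUR-CD. All VEH-CD mice lay above the rest, and VEH-WT had the lowest mean, with an interaction of -0.64 (standard error 0.16, 95% interval -0.98 to -0.30, adjusted p = 0.783 by limma with Benjamini-Hochberg adjustment). Frat1, an inhibitor of GSK3 in Wnt signalling, had an interaction of -0.53 (95% interval -0.84 to -0.22), Dnajc17 an interaction of -0.53 (95% interval -0.89 to -0.17) and the homeobox gene Six5 an interaction of -0.52 (95% interval -0.95 to -0.10), while Gm6180 (interaction -0.62, 95% interval -1.04 to -0.20), Gm4544 (interaction -0.73, 95% interval -1.17 to -0.30) and Gm39822 (interaction -0.44, 95% interval -0.74 to -0.13) are predicted genes.

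By p, the lowest interaction values began with Rprm, a p53-induced inhibitor of the cell cycle and a marker of layer 6 neurons. Rprm had normalized counts of 2762, 2644 and 2570.1 in VEH-WT, 2791, 2592 and 2738 in VERCUR-WT, 3375, 3082 and 3265 in VEH-CD and 2686, 2494 and 2454 in VERCUR-CD. The VEH-CD mice were above all others and the 3 other groups covered 2454 to 2791, with an interaction of -0.37 (standard error 0.09, 95% interval -0.56 to -0.19, adjusted p = 0.783 by limma with Benjamini-Hochberg adjustment). Then came Rpl37rt (interaction -1.22, 95% interval -1.83 to -0.62), Tbx1, Crocc, Gm10819 (interaction -0.80, 95% interval -1.22 to -0.37), Gm4735 (interaction -0.54, 95% interval -0.83 to -0.25), Creb3l3 (interaction -1.54, 95% interval -2.37 to -0.71) and Rpl9-ps6 (interaction -0.64, 95% interval -1.01 to -0.27). Rpl37rt and Rpl9-ps6 are retrocopies of ribosomal protein genes, whose reads can be shared with their parent genes.

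The genes of the mitochondrial respiratory chain encoded in the nucleus were slightly and widely on the negative side. Of 97, 88 had an interaction below 0, against 8302 of all 17111 genes, with a median of -0.12 from -0.06 in CD and 0.06 in WT. Only 1 (1.03%) had an unadjusted p under 0.05 in that direction, fewer than the 2.33% of all genes. That gene was Ndufb4c, a copy of a complex I subunit gene (interaction -0.19, 95% interval -0.38 to -0.00064), the lowest was Uqcc3 (interaction -0.25, 95% interval -0.58 to 0.08) and the highest Cox7a1 (interaction 0.26, 95% interval -0.49 to 1.00). Of 87 cytosolic ribosomal protein genes 84 were below 0, with a median of -0.10 and 1 (1.15%) at that p, Rps3a2, with an interaction of -0.54 (95% interval -0.97 to -0.11), and the highest was Rps3a3, with an interaction of 0.50 (95% interval -0.39 to 1.39), both of which have near-identical copies. Without VERCUR-CD 2 the medians of these lists were -0.05 and -0.02, and without VEH-CD 2 they were -0.18 and -0.20, where 12 respiratory chain and 8 ribosomal genes were lower at an unadjusted p under 0.05. The respiratory chain count was 4 without VERCUR-WT 1, 5 without VERCUR-CD 1 and 0 without VEH-WT 2, VEH-WT 3, VERCUR-WT 2, VERCUR-WT 3, VEH-CD 1, VEH-CD 3, VERCUR-CD 2 or VERCUR-CD 3, and the ribosomal count was 2 without VERCUR-WT 1 or VERCUR-CD 3.

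These 2 lists hold short genes, with median exon lengths of 1.55 kb and 1.73 kb. Over 14697 protein-coding genes, the median interaction went from -0.08 in the quintile with the shortest exon length (median 1.80 kb) over -0.03, 0.01 and 0.05 to 0.12 in the longest (9.92 kb). In the longest quintile 6.09% of genes were higher and 0.27% lower at an unadjusted p under 0.05, and in the shortest 1.43% and 3.03%. The level of the longest relative to the shortest quintile was 0.30 in VERCUR-CD 2 and between -0.16 and 0.11 in the other 11 mice, with the groups overlapping. Without VERCUR-CD 2 the difference in median interaction between the longest and the shortest quintile was 0.07 in place of 0.20, and without VERCUR-CD 1 it was 0.31. The immediate early factors have a median exon length of 3.23 kb, and their median interaction without VERCUR-CD 2 was 0.94. What part length has in the values of the immediate early factors or in the other results was not tested.

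**Figure D4:**
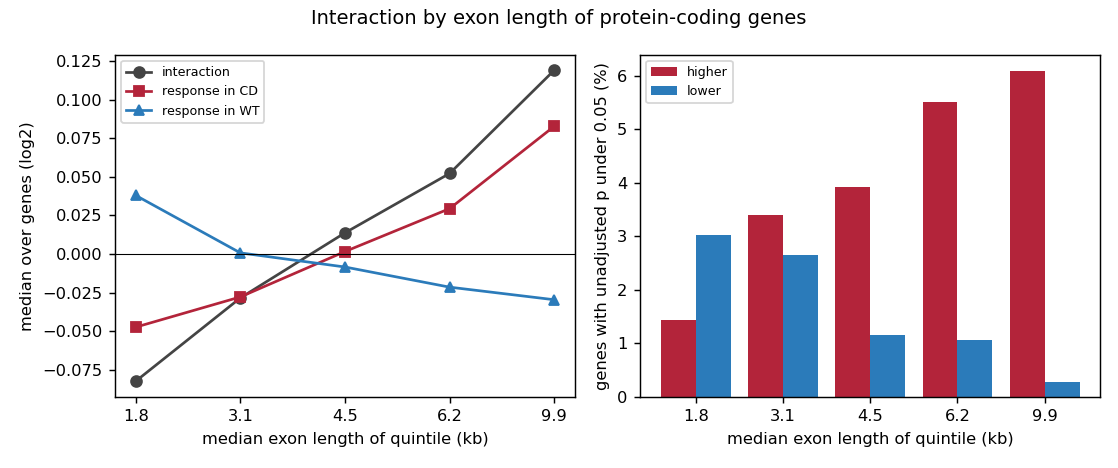
Median interaction and median responses in CD and WT (left, log2) and share of genes with an unadjusted p under 0.05 (right, %) in quintiles of protein-coding genes by exon length, labelled with their median length in kb. The median interaction runs from -0.08 in the shortest to 0.12 in the longest quintile, and higher genes make up 6.09% of the longest.

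Myelin and oligodendrocyte genes had a median interaction of 0.36, from -0.09 in CD and -0.46 in WT. Of the 22, 21 were above 0 (8809 of all 17111 genes), but 0 had an unadjusted p under 0.05 with limma and 0 an adjusted one. Of all genes, 3.72% were higher and 2.33% lower at that unadjusted p. Ugt8a, which makes the lipid galactosylceramide, was highest. Ugt8a had normalized counts of 2195, 1567 and 2448 in VEH-WT, 1014, 1353 and 1941 in VERCUR-WT, 1624, 1548 and 1546 in VEH-CD and 1676, 2009 and 1281 in VERCUR-CD. VERCUR-WT 1 had the lowest value of the 12 mice, with an interaction of 0.60 (standard error 0.31, 95% interval -0.08 to 1.28, adjusted p = 0.816 by limma with Benjamini-Hochberg adjustment). Olig2, a transcription factor of the lineage, was lowest, an interaction of -0.07 (95% interval -0.50 to 0.36). Without VERCUR-WT 1 the median was 0.06, and without VERCUR-WT 3 it was 0.66. In the latter fit 11 of the 22 were higher at an unadjusted p under 0.05, against 777 of all genes. The count was 2 without VEH-WT 2 (565 of all genes) and 1 without VERCUR-CD 3 (527 of all genes). The list thus rested on how 3 VERCUR-WT mice spread. In bulk tissue, fewer oligodendrocytes and less RNA per cell cannot be told apart.

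Striatal neuron markers, which should be low in cortex, were expressed and differed between mice of the same group. The mean level of the 19 tested, relative to all 12 mice, ran from -1.20 to 1.21 in VERCUR-WT, from 0.06 to 1.00 in VEH-WT, from 0.01 to 1.06 in VEH-CD and from -1.06 to 0.79 in VERCUR-CD. The median interaction of this list was -0.10, with median responses of -0.60 in CD and -0.52 in WT and 0 members at an unadjusted p under 0.05 with limma. Without VERCUR-CD 1 the median interaction was -0.59, and without VERCUR-WT 3 it was 0.55. The amount of striatum in a sample and its part in the results above were not tested. The level of the immediate early factors was 0.23, 0.84 and 0.54 in VEH-WT, 0.10, -0.41 and 0.20 in VERCUR-WT, -0.75, -0.17 and -0.27 in VEH-CD and 0.04, -0.29 and -0.07 in VERCUR-CD. All VEH-WT mice were above the others on this measure and VEH-CD and VERCUR-CD overlapped. In the same order of mice, the striatal level was 0.10, 0.06 and 1.00 in VEH-WT and -1.20, -1.08 and 1.21 in VERCUR-WT. It was 1.06, 0.01 and 0.14 in VEH-CD and 0.79, -1.04 and -1.06 in VERCUR-CD. How the 2 levels relate was not tested.

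**Figure D5:**
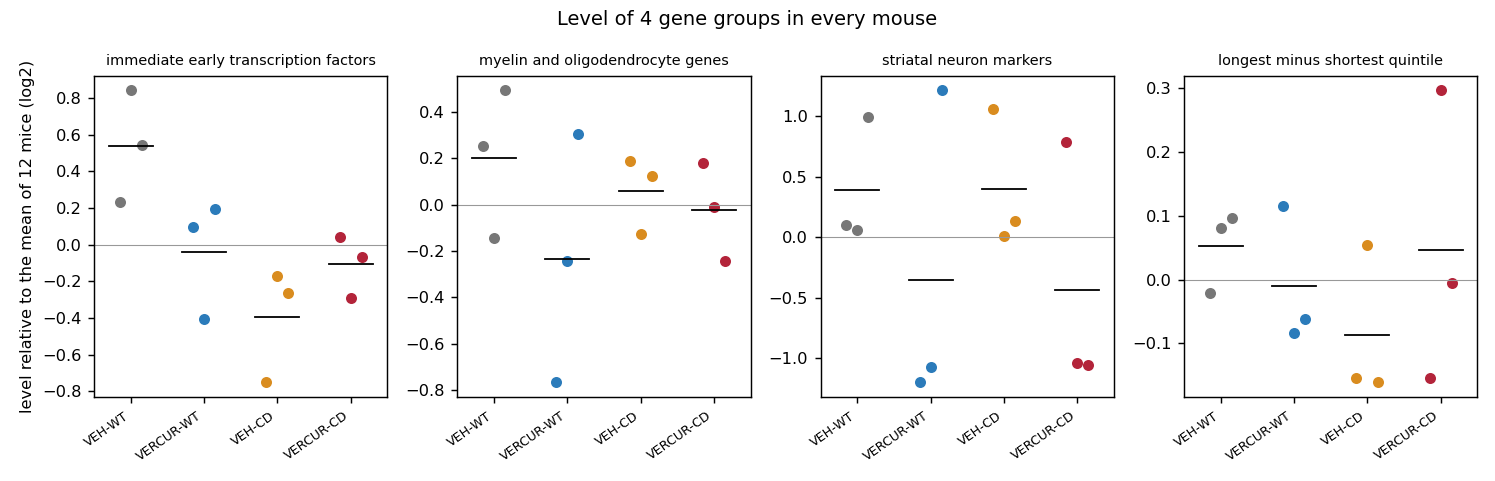
Level of 3 gene lists and of the longest minus the shortest quintile of genes by exon length, in every mouse, on the log2 scale relative to the mean of 12 mice. Points are mice, black bars group means of 3. The VEH-WT mice lie highest for the immediate early factors, from 0.23 to 0.84, striatal markers spread from -1.20 to 1.21 across groups, and VERCUR-CD 2 stands apart in the right panel at 0.30.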

How the data were processed

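Cortical RNA of 12 male mice was sequenced by the authors (Illumina, paired ends), and per the labels and the submitters' processing notes reads were checked with FastQC and aligned to GRCm38 with STAR 2.5.3a. The program that counted reads, its annotation, its use of strand and the normalization are not given in the sources used here, so overlapping genes and genes with near-identical copies are uncertain. The authors deposited normalized counts per gene and mouse, which are gene counts divided by 1 factor per sample (named "other" in the unit check because the file writes decimal commas). In each mouse, 100% of low values fell on multiples of a sample-specific step (tolerance 0.1 of a step), which gave the reads counted. The authors also deposited 2 tables of selected genes relative to VEH-WT, which were not used here.

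Groups came from the sample titles. On the log2(normalized count + 1) scale, limma 3.58.1 in R 4.3.3 was run on the 17111 genes whose mean was 10 or more, with 4 group means and an intensity trend. Fold changes on this scale understate those of low genes. The p values of the interaction and of the response in each genotype are two-sided and Benjamini-Hochberg adjusted over all genes tested. With 3 mice against 3, an exact permutation test of the response in 1 genotype cannot pass 0.05. No permutation test was run, also not of the interaction. "No overlap" means that all 3 VERCUR values lay on 1 side of all 3 vehicle values. Lists are described by their counts and medians, with no test. Of the 46 lists computed, not all are described. The script was tested on simulated data.

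Named are the 8 genes with the smallest p in each direction, the 8 genes of opposite response without overlap in each direction with the largest smaller response (mean of at least 50), the highest, lowest and smallest-p members of the lists described, and genes the study measured otherwise. Some items that this rule names are not reported here. Other genes (Fos, Nr4a1, Egr1, Egr3, Sgk1, Fkbp5, Cacna1c, Cacna1d, Abcb1a, Sc5d, Klf4) were picked with their values in view. The members and lists were chosen with earlier results of these data known. Exon lengths and positions are those of GENCODE M21 for GRCm38, where 17181 of 17202 genes were found, and promoters were matched to RefSeq by symbol. Alternatives were pseudocounts of 0.1 and 5, no filter or a mean of at least 50, quantile normalization, centring on the median log2 ratio, no trend, gene-by-gene sample weights, a replicate block and leaving out each mouse. voom on the recovered reads and the leave-one-out of the length quintiles were added after seeing the data.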

Additional observations from a re-analysis of the deposited data

Results flagged for a closer look

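In 25 of the genes named above, every VERCUR-CD mouse lay on 1 side of every VEH-CD mouse and every VERCUR-WT mouse on the opposite side of every VEH-WT mouse. The difference between genotypes was not called for any of them (smallest adjusted p = 0.532 with limma and Benjamini-Hochberg adjustment), and most were named because of this separation, which 0.631% of all genes show. The interaction was positive in Zfp189 (1.44), Utp14b (1.05), Tent5a (0.86), Ppp1r3c (0.50), Vasn (0.81), Klf10 (1.33), Sik1 (1.60), Trib1 (1.24), Rbm15 (0.84), Zfp366 (0.96), Kdm6b (0.99), Klf2 (0.77), Klf4 (0.88), Rel (0.75), Errfi1 (0.48), Cyp51 (0.35) and Sc5d (0.21). It was negative in Tbx1 (-1.57), Crocc (-0.64), Gm6180 (-0.62), Gm4544 (-0.73), Frat1 (-0.53), Gm39822 (-0.44), Dnajc17 (-0.53) and Six5 (-0.52). Groups of 3 mice are too small for a test of single outlying values.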

How the results depend on the processing

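The number of genes with an adjusted p under 0.05 for the interaction was 0 in every fit that was run, with a smallest adjusted p from 0.0839 (gene-by-gene sample weights) to 0.948 (without VEH-CD 1), limma with Benjamini-Hochberg adjustment. The 1035 genes at an unadjusted p under 0.05 became 1844 with the weights and from 700 (without VEH-CD 3) to 1969 (without VERCUR-CD 1) when 1 mouse was left out. The 108 opposite genes without overlap became 26 when a response of 0.3 in each genotype was also asked for and 40 by an unadjusted p under 0.05 in each genotype. With 1 mouse left out, which makes separation easier, they numbered 152 to 361, and the 49 genes of the same direction 77 to 145. After quantile normalization 66 opposite genes were higher and 69 lower in CD, in place of 70 and 38. The correlation of both responses ran from -0.152 to 0.0396 without 1 mouse.

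List medians moved most without 1 mouse. They ran from 0.045 to 0.099 for ATP-binding cassette transporters, 0.089 to 0.17 for cholesterol synthesis, 0.16 to 0.34 for the clock, -0.089 to 0.12 for the inflammasome, 0.12 to 0.32 for Kruppel-like factors, 0.041 to 0.14 for NF-kappa B, -0.094 to -0.0077 for NRF2, 0.031 to 0.16 for calcium channels (0.086 after quantile normalization) and 0.058 to 0.18 for potassium channels. The remaining list medians moved by less than their spread between mice. Among them was that of the striatal markers, which spread widely and whose median ran from -0.59 to 0.55. The cause of these moves was not tested. Signs turned in 7 named genes near 0. Without 1 mouse Aim2 ran from -0.14 to 0.19, Akt1 from -0.0016 to 0.058, Bcl3 from -0.62 to 0.029, Jund from -0.069 to 0.063, Olig2 from -0.19 to 0.12, Osgin1 from -0.43 to 0.061 and Pycard from -0.089 to 0.15. Under the weights Aim2 was -0.081, Jund 0.013 and Osgin1 0.070, and under voom Akt1 was -0.00433 and Pycard -0.0054. The other 1725 values of named genes kept their sign. No gene passed the adjusted threshold in any fit, so none could cross it. Counts at an unadjusted p under 0.05 did change, as given beside several lists. Without 1 mouse the higher count ran from 2 to 4 for NF-kappa B and 4 to 7 for the clock. It ran from 5 to 7 for MAPK feedback inhibitors and 4 to 6 for Kruppel-like factors. For homeostatic and for activated microglia, the higher and the lower count each ran from 0 to 1.

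Replicate numbers are shared by all groups, and 4 of 18 correlations of the deviations of same-numbered mice were over 0.1 (-0.347 to 0.267). Their mean was -0.02, against 0.01 for mice of other numbers. The main fit therefore does not pair mice by number, though so few mice cannot exclude a weak or partial pairing. With the replicate block 1049 genes had an unadjusted p under 0.05, the smallest adjusted p was 0.691 (limma, Benjamini-Hochberg), and 316 genes were opposite and 113 alike without overlap once the number's means were removed. The planned edgeR and DESeq2 fits on recovered reads were not run.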
